A study of Sus scrofa with 37 samples.

Results

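The 15 cultured islet libraries described here come from 15 pigs and are grouped by the islet density label of the pancreas piece taken from the same animal. That gives 7 islet libraries from organs labelled High and 8 from organs labelled Low, out of 37 samples in the series, of which 35 had a column of counts. An islet sample also carries a density label of its own, and in 4 animals it differs from the label of the organ. The question is which genes of the islets differ with the label of the organ they were taken from.

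Islets are small clusters of endocrine cells scattered through the digestive tissue of the pancreas. Beta cells release insulin, alpha cells glucagon, delta cells somatostatin and PP cells pancreatic polypeptide. In beta cells, insulin granules leave the cell when glucose metabolism closes potassium channels and lets calcium in. Once taken out of the organ, islets lose their blood supply, and the oxygen and amino acids reaching their core, the connective tissue attached to them and the exocrine cells left around them can all vary between preparations.

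The islets had been purified from the pancreas and kept floating in culture medium for 7 days, and the organ pieces were 50 mg samples of the duodenal lobe. No treatment or genotype is named in the labels, and they do not say how density was measured or give breed, sex or age. High organs were those of animals 11KS28, 12FS131, 12FS133, 15LS26, 15LS29, 16CS60 and 16IS5. Low organs were those of 12FS135, 12FS161, 14BS54, 14ES72, 14ES73, 14HS26, 14HS27 and 14HS7. The islets' own label was Low in 15LS26 and 16IS5 and High in 12FS135 and 12FS161, and in the other 11 animals it matched the organ. The islet sample of 11KS28 has pancreas as its source name although its title says islets, and the title was followed. Animal 12AS51, whose islets have no density label, was left out. Each library is 1 animal, so the p-values measure the spread between animals.

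The leading digits of the animal code do not run evenly across the groups. All 6 animals coded 14 had Low organs, the 2 coded 15, the 2 coded 16 and the 1 coded 11 had High organs, and code 12 had 2 of each. The labels do not say what the digits mean, and for codes other than 12 the code and the organ label cannot be told apart. In a multidimensional scaling of the 500 genes that differ most between pairs of libraries, the 4 libraries coded 15 or 16 stood apart, at 0.787 to 0.954 on the first dimension, while the other 11 lay between −0.641 and 0.008. On that dimension the other 3 High libraries lay at −0.641 to −0.217 and the Low ones at −0.439 to 0.008. For part of the results below, values without the 4 that stood apart are also given. That omission was chosen after the data were seen.

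**Figure D1:**
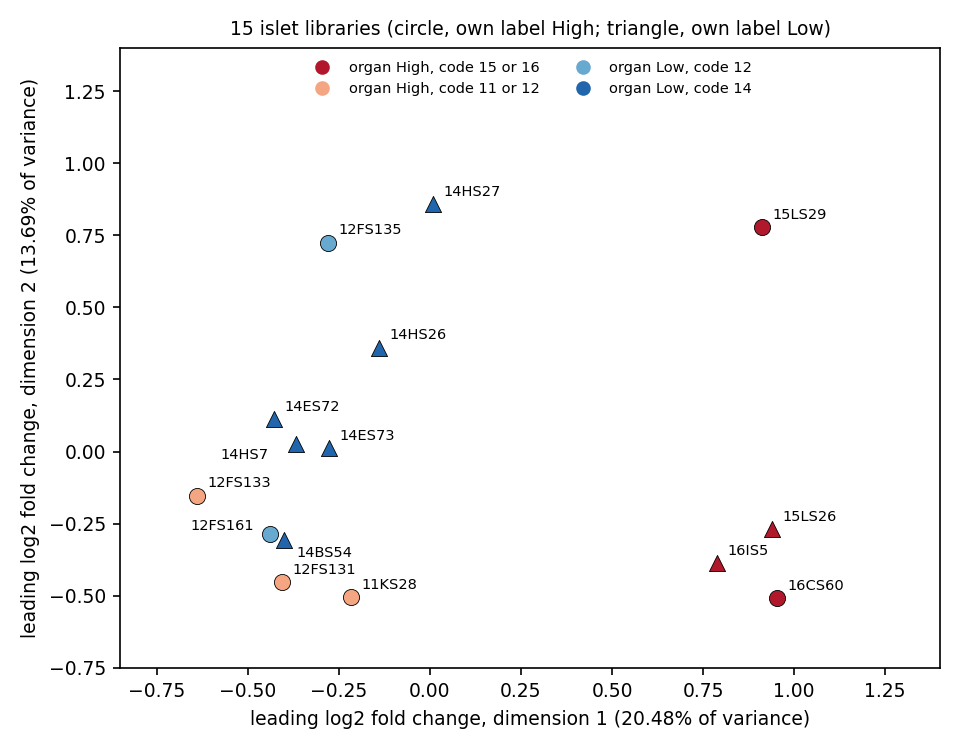
Multidimensional scaling of the 15 islet libraries on 500 genes, with dimension 1 (20.48% of the variance) across and dimension 2 (13.69%) up, both as leading log2 fold change. Colours give the organ label and the leading digits of the animal code, circles are islets whose own label is High and triangles those whose own label is Low. The 4 libraries of codes 15 and 16 lie at 0.787 to 0.954 on dimension 1 and the other 11 at −0.641 to 0.008.

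Counts per library ranged from 3312269 to 5313277, so that 3 counts, taken as the detection floor, were worth 0.565 to 0.906 CPM (a count divided by the total of its library, times 1000000). Depth was lower in High (3851400 ± 433220, SD, n = 7) than in Low (4606100 ± 510460, SD, n = 8; exact two-sided permutation p = 0.0103, adjusted p = 0.0239 over 7 values compared), and its part in the results below was not tested except by a fit with depth as a term. The tissue label held: INS was the leading hormone gene in every library at 24512 to 61440 CPM, and 22 of 23 listed pan-endocrine genes were detected in all 15. Of 22 acinar genes in the table, 4 reached the level needed for testing, and lymphocyte and erythroid genes summed to at most 7.32 and 2.64 CPM. In tissue that holds several cell types, fewer cells of a type and less RNA per cell cannot be told apart.

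Somatostatin and pancreatic polypeptide, the hormones of the 2 less common islet cell types, were at lower levels in islets from High organs, while the differences in insulin and glucagon did not pass the test. SST (ENSSSCG00000033815), somatostatin, was at 191 to 732 CPM with a median of 441 in High and at 287 to 1476 CPM with a median of 1011 in Low. Only 14BS54 and 14ES72 among the Low libraries lay below the highest High library, 12FS133. The means were 421 ± 173 CPM (SD, n = 7) and 955 ± 361 CPM (SD, n = 8; exact two-sided permutation p = 0.00466, adjusted p = 0.0174 over 7 values). In the edgeR fit across all genes, where each p is adjusted over 12095 genes, the log2 fold change of SST was −1.18 (SE 0.32, adjusted p = 0.292), so it did not pass there.

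PPY (ENSSSCG00000017368), pancreatic polypeptide, was at 42.5 to 120 CPM with a median of 63.9 in High and at 71.1 to 531 CPM with a median of 138 in Low. The 2 highest libraries, 14HS26 at 531 and 14ES73 at 349, set much of the Low spread, and the groups overlapped. The means were 70.8 ± 25.2 CPM (SD, n = 7) and 201 ± 159 CPM (SD, n = 8; exact two-sided permutation p = 0.00497, adjusted p = 0.0174 over 7 values), with a log2 estimate of −1.48 (SE 0.44, adjusted p = 0.333, edgeR). Without the 4 libraries of codes 15 and 16 the log2 fold changes were −0.92 for SST and −1.43 for PPY, and the exact permutation p-values were 0.0848 and 0.0364 before adjustment, neither of which passed after it. With so few High libraries left, a hormone that alone separated the groups completely could not have passed after adjustment either. Between the 2 High and 2 Low animals of code 12 the log2 fold changes were −1.10 and −0.53. Without the 6 animals of code 14, which leaves 7 against 2, the exact permutation p-values were 0.0556 and 0.167. The first is the smallest that 36 splits can give, so that this test could not pass, and both Low libraries of code 12 lay above every High library for SST.

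INS (ENSSSCG00000033740), insulin, was at 29451 to 61440 CPM with a median of 49954 in High and at 24512 to 46410 CPM with a median of 35725 in Low. The 4 libraries of codes 15 and 16, at 49954 to 61440 CPM, were above every other library, and the other 3 High libraries, at 29451 to 39184, lay within the Low range. The means were 45715 ± 12712 and 36574 ± 7308 CPM (SD, n = 7 and 8; exact permutation p = 0.111, adjusted p = 0.175). The log2 fold change was 0.30 (SE 0.17, adjusted p = 0.585), and −0.12 without those 4 libraries. GCG (ENSSSCG00000015895), glucagon, was at 4291 to 17748 CPM with a median of 6884 in High and at 6940 to 17152 CPM with a median of 10965 in Low. The highest value of all was in 12FS133, a High library, while 15LS26, 16CS60, 16IS5 and 12FS131 lay below the lowest Low library. The GCG log2 fold change was −0.49 (SE 0.29, adjusted p = 0.610), and −0.09 without codes 15 and 16.

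**Figure D2:**
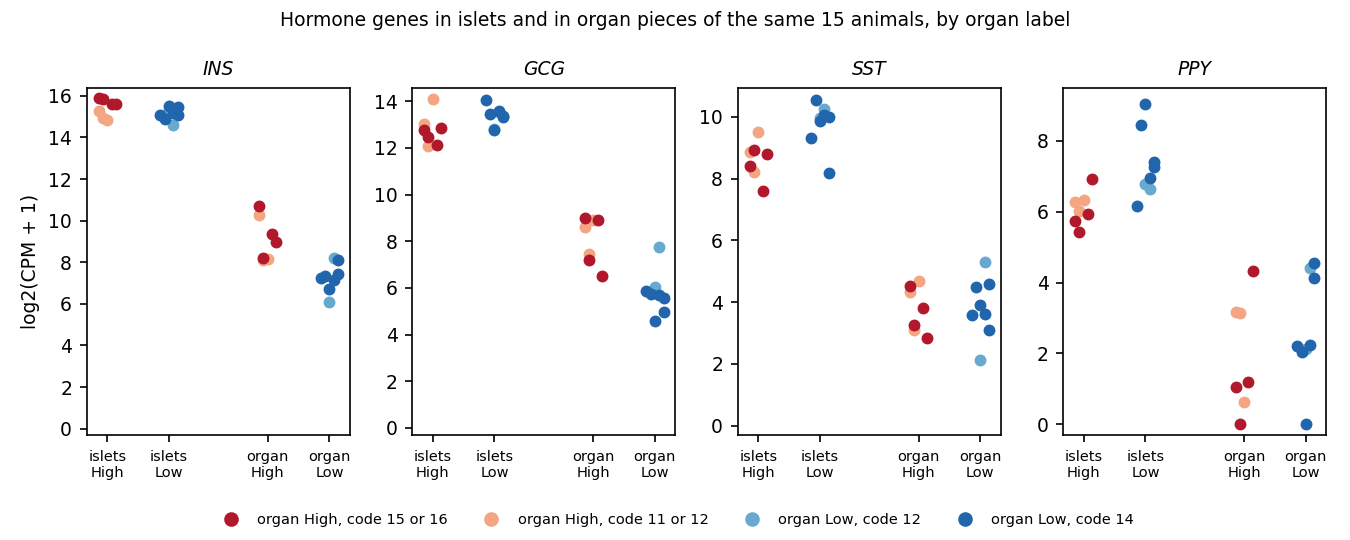
Levels of INS, GCG, SST and PPY as log2(CPM + 1) in the islets (left pair of columns in each panel) and in the organ pieces (right pair) of the same 15 animals, with 1 point per library, grouped by the organ label and coloured by animal code. In islets SST and PPY sit lower in High and INS overlaps between the groups. In the organ pieces INS and GCG sit higher in High.

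The same label gave another picture in the organ pieces of these 15 animals. There INS was at 273 to 1680 CPM in High and 67.5 to 297 CPM in Low, a log2 fold change of 1.94 (adjusted p = 0.000565), and GCG was at 90.8 to 509 CPM against 23.2 to 217 CPM, a log2 fold change of 2.19 (adjusted p = 0.000389). SST differed by −0.35 (adjusted p = 0.448). In that edgeR fit of the organ pieces alone, 5456 of 11039 genes passed. Tested in 1 edgeR model with the animal as a block, the difference between organ labels in islets minus that in the organ was −3.13 (SE 0.54, adjusted p = 8.85e-05) for GCG, −1.73 (SE 0.55, adjusted p = 0.0118) for INS, −1.22 (SE 0.45, adjusted p = 0.0292) for SST and −0.14 (SE 0.87, adjusted p = 0.905) for PPY. In that model 44.3% of 14973 genes passed. The organ libraries differ in depth with the label: 7 of the 8 Low ones held 265000 to 536014 counts and the 7 High ones 1855075 to 3922006. The INS values in the 7 shallow pieces rest on 20 to 85 counts each. With those animals left out, which leaves 12FS161 as the lone Low animal, assumed to vary like the High ones, 0 genes passed, and the values were −1.43 for GCG, −0.35 for INS and −0.43 for SST. The call for SST was also lost with relative log expression scaling (adjusted p = 0.0622) and with no animal block (adjusted p = 0.0855, edgeR). Depth and organ label cannot be told apart in the organ pieces.

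Across all genes, none passed the threshold between islets from High and from Low organs. The edgeR quasi-likelihood test called 0 of 12095 genes (0%) at an adjusted p of 0.05, and limma-voom also called 0, while DESeq2 called 43, with 23 higher and 20 lower in High. At an unadjusted p of 0.05 there were 1200 genes (9.92%), of which 635 (5.25%) had higher and 565 (4.67%) lower estimates in High. Without the 4 libraries of codes 15 and 16 the count was again 0. Leaving out the High library 12FS133 gave 25 calls and leaving out 12FS131 gave 12, while removing any other single library gave 0. With the log2 library total as a term 0 genes passed, and 779 had an unadjusted p under 0.05.

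The genes closest to the threshold are therefore given as values. By the rule used, they are the 10 with the smallest p in each direction that have a symbol and at least 5 CPM on average in the higher group. Their adjusted p-values ran from 0.0859 to 0.211. All 20 passed in DESeq2, which called 0.356% of all genes, and none changed sign in 657 values over 33 other settings. Without codes 15 and 16 all 20 had an unadjusted p under 0.05, against 3.44% of all genes in the higher direction and 4.04% in the lower. Between the code 12 animals alone, 2 against 2, 5 of the 20 did, and 452 genes in all had such a p. Since the 20 were chosen for their p in libraries that these settings share, such values are a description and no independent check.

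PLEKHB1 (ENSSSCG00000014827), a pleckstrin homology domain protein known from photoreceptors and brain, had the largest estimate of the 20. It was at 1.24 to 17.5 CPM with a median of 6.598 in High and at 0.732 to 2.57 CPM with a median of 1.72 in Low. The libraries of codes 15 and 16 were the 4 highest, at 6.598 to 17.5, 11KS28 and 12FS131 followed at 4.78 each, and 12FS133 lay inside the Low range. Its log2 fold change was 2.11 (SE 0.38, adjusted p = 0.0859), and 1.13 without codes 15 and 16. Several Low values lie near the floor, where a CPM rests on a few counts.

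CPB2 (ENSSSCG00000009413), a carboxypeptidase that slows the breakdown of fibrin clots, was at 50.0 to 99.4 CPM with a median of 78.7 in High and at 18.7 to 60.1 CPM with a median of 31.1 in Low. Of the Low libraries only 14ES73 reached the High range. The log2 fold change was 1.22 (SE 0.24, adjusted p = 0.132). It was 0.87 without codes 15 and 16 and 1.33 between the code 12 animals, where the High libraries held 50.0 and 68.2 CPM and the Low ones 19.8 and 27.8.

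TRPM5 (ENSSSCG00000039644), a calcium-activated cation channel of taste cells that is also found in beta cells, was at 12.9 to 76.1 CPM with a median of 33.5 in High and at 10.8 to 24.7 CPM with a median of 15.6 in Low. The highest library was 16CS60, and 12FS133 was the only High library below the highest Low one, 14HS26. The log2 fold change was 1.22 (SE 0.26, adjusted p = 0.135). NYAP2 (ENSSSCG00000016239), an adaptor of phosphoinositide 3-kinase known from neurons, was at 29.7 to 131.2 CPM with a median of 83.9 in High and at 15.7 to 53.2 CPM with a median of 25.9 in Low. Its log2 fold change was 1.51 (SE 0.30, adjusted p = 0.132), and 0.11 between the code 12 animals.

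MPPE1, which trims the lipid anchor of membrane proteins before they leave the endoplasmic reticulum, was at 7.69 to 40.5 CPM in High and 4.24 to 8.11 CPM in Low (log2 estimate 1.52). DRC1, part of the dynein regulatory complex of motile cilia, was at 22.3 to 61.9 CPM against 17.9 to 27.3 CPM (0.87). PPP1R3G, which brings protein phosphatase 1 to glycogen, was at 6.30 to 13.9 CPM against 1.22 to 5.40 CPM (1.26), and its groups did not overlap. ABTB1, HUS1, of the DNA damage checkpoint clamp, and EEIG1 had estimates of 0.99, 0.72 and 0.48. The libraries of codes 15 and 16 held the highest values of PLEKHB1, DRC1, MPPE1, CPB2, ABTB1, PPP1R3G and NYAP2, each of the 4 above the other 11.

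**Figure D3:**
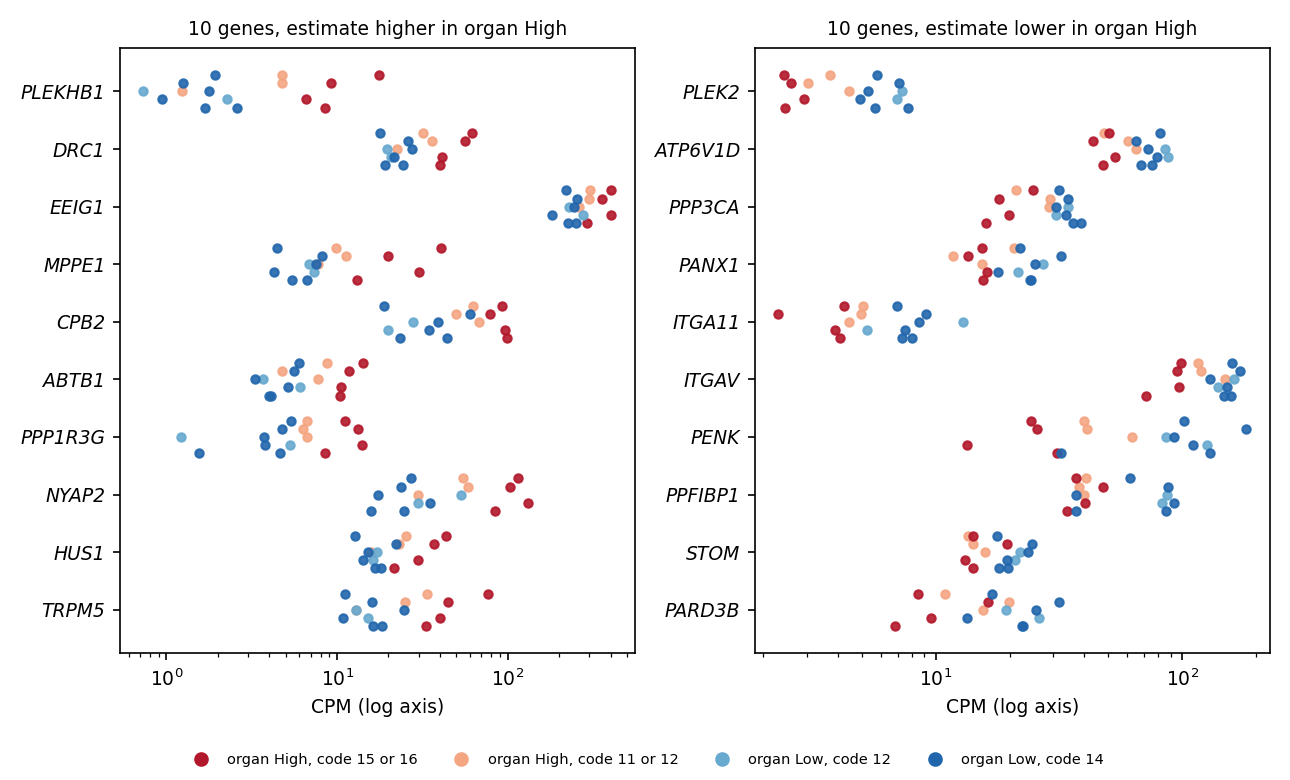
CPM on a log axis in each of the 15 islet libraries for the 10 genes with the smallest p and a higher estimate in High (left) and the 10 with a lower estimate (right), coloured by organ label and animal code. Of the 20, PPP1R3G on the left and PLEK2, PPP3CA and ITGA11 on the right have groups that do not overlap with or without TMM scaling, and ATP6V1D only without it. Libraries of codes 15 and 16 lie at the far ends of most rows.

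Among the 10 genes with lower estimates in High, 3 had groups that did not overlap with or without TMM scaling. PLEK2 (ENSSSCG00000002290), pleckstrin 2, which acts on the actin cytoskeleton, was at 2.42 to 4.46 CPM with a median of 2.93 in High and at 4.95 to 7.72 CPM with a median of 6.37 in Low. Its log2 fold change was −1.03 (SE 0.19, adjusted p = 0.0859), and it was −0.74 without codes 15 and 16 and −0.92 between the code 12 animals. PPP3CA (ENSSSCG00000009172), the catalytic subunit of the calcium-dependent phosphatase calcineurin, was at 16.1 to 29.1 CPM with a median of 21.2 in High and at 30.6 to 39.0 CPM with a median of 34.1 in Low, with an estimated log2 difference of −0.60 (SE 0.12, adjusted p = 0.116). ITGA11 (ENSSSCG00000004961), a collagen-binding integrin, was at 2.30 to 5.05 CPM with a median of 4.23 in High and at 5.27 to 12.9 CPM with a median of 7.76 in Low, with an estimated log2 difference of −0.98 (SE 0.21, adjusted p = 0.132).

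Over all genes, in CPM of TMM-scaled library sizes, 6 had every High library above every Low library (0.0496%) and 7 had every High library below (0.0579%). The 6 were PPP1R3G, PEG3, an imprinted zinc finger gene, GART, a purine synthesis enzyme, PRPF31, a splicing factor, NCKIPSD and ZSCAN25, with log2 fold changes from 0.20 for GART to 1.26 for PPP1R3G. Besides PLEK2, PPP3CA and ITGA11, the 7 were CCDC88C, a regulator of Wnt signalling (−0.83), ORMDL1, which restrains sphingolipid synthesis (−0.50), WDR12, of ribosome assembly (−0.30), and CUL4B, a ubiquitin ligase scaffold (−0.29). Their adjusted p-values were 0.0859 to 0.451, and those names beyond the 4 already given were chosen after their values were seen.

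PENK (ENSSSCG00000006243), the precursor of enkephalin peptides, had the largest lower estimate of the 20. It was at 13.4 to 62.5 CPM with a median of 31.1 in High and at 32.2 to 182 CPM with a median of 106 in Low. All Low libraries except 14BS54 were above the highest High library, 12FS133. The log2 fold change was −1.66 (SE 0.34, adjusted p = 0.151), and it was −1.15 without codes 15 and 16 and −1.02 between the code 12 animals. PPFIBP1 (ENSSSCG00000000549), a liprin that binds at cell contacts, was at 34.0 to 47.7 CPM in High and at 37.0 to 92.6 CPM in Low. The Low libraries were split, with 14HS26 and 14HS7 at 37.0 and 37.1 CPM and the other 6 at 61.7 to 92.6. The log2 fold change was −0.87 (SE 0.19, adjusted p = 0.165), and −1.09 (adjusted p = 0.0137, edgeR) without the animals of code 14. That setting leaves 7 High against 2 Low libraries and drops 14HS26 and 14HS7.

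The other 5 had estimates of −0.49 to −0.84. ITGAV, the alpha chain of integrins that bind fibronectin and vitronectin, was at 71.1 to 149 CPM in High and 130 to 171 CPM in Low (−0.54, SE 0.11). ATP6V1D, a subunit of the proton pump that acidifies granules and lysosomes, was at 43.4 to 64.7 CPM against 65.3 to 87.3 CPM (−0.56, SE 0.11). The ATP6V1D ranges do not meet in CPM of the library total, and overlapped once library sizes were scaled by TMM. PANX1, a channel that releases ATP, was at 11.7 to 20.7 CPM against 17.9 to 32.2 CPM (−0.66, SE 0.14). PARD3B, a cell polarity protein, and STOM, stomatin of the plasma membrane, had estimates of −0.84 and −0.49.

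Connective tissue genes had lower estimates in High, and the 4 libraries of codes 15 and 16 were the lowest. Of 15 fibroblast and stellate cell genes tested, all 15 had a negative estimate and 6 had an unadjusted p under 0.05, against 4.67% of all genes, with 0 past the threshold. The median log2 fold change was −0.49, against 0.00 over all genes. It was −0.07 without codes 15 and 16, where 4 estimates were positive. The mean level of the list as log2(CPM + 1) was 3.29 to 3.99 in those 4 libraries, 4.35 to 4.43 in the other 3 High libraries and 4.03 to 5.35 in Low, with 12FS135 at the top. FN1, fibronectin, was at 37.9 to 161.5 CPM with a median of 62.9 in High and at 95.8 to 349 CPM with a median of 177 in Low (log2 estimate −1.06, SE 0.35, adjusted p = 0.357). The 3 High libraries of codes 11 and 12, at 131.2 to 161.5 CPM, lay within the Low range. ACTA2, the smooth muscle actin of contractile and activated stellate cells, was at 1.44 to 7.60 CPM against 4.57 to 13.6 CPM (−1.35, SE 0.35, adjusted p = 0.254), and −1.07 without codes 15 and 16. COL6A1, a collagen VI chain, and SPARC, a matrix protein, had estimates of −0.54 and −0.49.

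Matrix and basement membrane genes as a wider list turned sign with the libraries used. Of 29 tested, 6 had a positive estimate, and the median was −0.19. An unadjusted p under 0.05 was found for 1 in the higher direction and 5 in the lower, against 5.25% and 4.67% of all genes. Without codes 15 and 16 the median was 0.02, with 16 positive. There 2 had an unadjusted p under 0.05 in the lower direction, against 4.04% of all genes. LAMB1, a laminin chain of the basement membrane, was the 1 past that p in the higher direction over all 15 libraries. It was at 182 to 324 CPM in High and 157 to 230 CPM in Low (0.40, SE 0.11, adjusted p = 0.269). MMP2, a matrix-degrading protease, had an estimate of −0.71.

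Genes of oxygen shortage and glycolysis had higher estimates in High, again with the 4 libraries of codes 15 and 16 at the top. Of 18 tested, 17 were positive and 9 had an unadjusted p under 0.05 in the higher direction, against 5.25% of all genes, and none passed the threshold. The median was 0.35. Without codes 15 and 16 it was −0.04, with 8 of 18 positive and none with an unadjusted p under 0.05 in that direction. The list level was 5.12 to 5.54 in those 4 libraries, 4.70 to 4.79 in the other 3 High libraries and 4.56 to 5.09 in Low. VEGFA, which drives vessel growth, was at 396 to 758 CPM with a median of 480 in High and at 305 to 478 CPM with a median of 412 in Low (0.43, SE 0.13, adjusted p = 0.319). The libraries 15LS26, 16CS60 and 16IS5 were at 725 to 758 CPM, while 15LS29 at 396 lay with the Low ones. ENO2, a glycolytic enolase of neurons and endocrine cells, was at 6.11 to 74.1 CPM against 8.10 to 15.4 CPM (1.41, SE 0.45, adjusted p = 0.357), and −0.07 without codes 15 and 16. PDK1, which holds pyruvate back from the mitochondria, and P4HA1, which hydroxylates collagen, had estimates of 0.39 and 0.34.

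The amino acid response, in which ATF4 raises transporters and synthetic enzymes when amino acids run short, also had higher estimates in High. The list level was 4.53 to 5.28 in codes 15 and 16, 4.37 to 4.51 in the other High libraries and 4.15 to 4.54 in Low. Of 18 genes tested, 17 were positive, with a median of 0.35. In the higher direction 7 had an unadjusted p under 0.05, against 5.25% of all genes. Without codes 15 and 16 the median was 0.11, with 13 positive. There 2 had an unadjusted p under 0.05, against 3.44% of all genes in the higher direction. SLC7A5, a transporter of large neutral amino acids, was at 29.3 to 79.4 CPM in High and 27.8 to 47.0 CPM in Low (0.52, SE 0.15, adjusted p = 0.292). CHAC1, which degrades glutathione, was at 8.18 to 74.9 CPM against 4.61 to 24.5 CPM (1.11, SE 0.36, adjusted p = 0.357). The CHAC1 value of 16CS60 stood well above the next, 31.3 in 16IS5. WARS1, a tryptophan tRNA ligase, had an estimate of 0.37, and −0.03 without codes 15 and 16.

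Chaperones of the endoplasmic reticulum differed little. Of 20 unfolded protein response genes tested, 16 were positive with a median of 0.09. Just 1 had an unadjusted p under 0.05, in the higher direction, against 5.25% of all genes. That was HYOU1, an endoplasmic reticulum chaperone known from oxygen shortage, at 622 to 769.6 CPM in High and 417 to 643 CPM in Low (0.32, SE 0.09, adjusted p = 0.283). Its estimate was 0.34 without codes 15 and 16.

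Heat shock and immediate early genes were highest in a few Low libraries. Of 14 heat shock genes tested, 13 were negative, with a median of −0.31. In the lower direction 3 had an unadjusted p under 0.05, against 4.67% of all genes. Without codes 15 and 16 the median was −0.42, and none had an unadjusted p under 0.05. DNAJB1, a cochaperone of HSP70, was at 16.7 to 63.5 CPM with a median of 34.0 in High and at 22.9 to 581 CPM with a median of 29.2 in Low. The libraries 14HS26 at 581 CPM, 14HS27 at 499 and 14HS7 at 127 were far above the others, so that the fitted log2 fold change of −2.19 (SE 0.87, adjusted p = 0.436) and the medians point in opposite directions. Of 14 immediate early genes, all were negative with a median of −0.71. An unadjusted p under 0.05 was found for 2 of them, against 4.67% of all genes in the lower direction. The median was −0.27 without codes 15 and 16, where 3 were positive and none had an unadjusted p under 0.05. ATF3, a stress-induced transcription factor, was at 91.2 CPM in 14HS26 and 65.5 in 14HS27, against 11.7 to 36.4 CPM in the other 13. Between the code 12 animals the median of the immediate early list was 0.68, opposite in sign.

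Among endocrine genes other than the hormones, CHGB, a granin that packs hormone granules, was at 542 to 2816 CPM in High and 1980 to 4078 CPM in Low (−0.77, SE 0.30, adjusted p = 0.421). The libraries of codes 15 and 16 held 542 to 1580 CPM and the other 3 High libraries 2453 to 2816, and without those 4 libraries the estimate was −0.15. The pan-endocrine list of 22 genes had 11 positive estimates and a median of 0.01, and 11 beta cell genes had a median of −0.10. ENTPD3, an ectonucleotidase of beta cells, had an estimate of −0.59. Of 12 alpha cell genes, 3 were positive, with a median of −0.31 that was 0.08 without codes 15 and 16. TTR, transthyretin, abundant in alpha cells, was at 1865 to 2964 CPM against 2260 to 3601 CPM (−0.41, SE 0.12, adjusted p = 0.292). Besides SST and PPY, LEPR, the leptin receptor, was the third of 4 tested delta and PP cell genes with an unadjusted p under 0.05. Its estimate was −0.51 (SE 0.16), and 4.67% of all genes had such a p in the lower direction. The median of the 4 was −0.85. It was −0.66 without codes 15 and 16, and none of the 4 had an unadjusted p under 0.05.

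Genes of glucose sensing and exocytosis went both ways, with a median of 0.02. Of 21 tested, 3 had an unadjusted p under 0.05 in the higher direction and 4 in the lower, against 5.25% and 4.67% of all genes. VAMP2, of the machinery that fuses granules with the membrane, had an estimate of 0.30. RAB3B, a granule-docking GTPase, had an estimate of −0.26. Of 20 islet transcription factors, 9 were positive with a median of −0.01. Within that list GLIS3, a regulator of the insulin gene, had an estimate of 0.37 and NEUROD1, an endocrine differentiation factor, −0.32.

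Interferon response genes had a median of 0.19. Of 16 tested, 3 had an unadjusted p under 0.05 in the higher direction, against 5.25% of all genes, and none in the lower. There were again 3 with codes 15 and 16 left out, against 3.44% of all genes, and the median was 0.15. IFI6, an interferon-induced protein, was at 8.45 to 76.1 CPM with a median of 16.4 in High and at 3.42 to 11.5 CPM with a median of 5.84 in Low (2.27, SE 0.51, adjusted p = 0.203). Its 3 highest libraries were 12FS133 at 76.1, 12FS131 at 50.0 and 15LS29 at 49.6 CPM. The estimate was 2.75 without codes 15 and 16 and 3.42 between the code 12 animals. The other 2 were IFIT1 (0.62) and MX1 (0.44), antiviral genes. RELB, an NF-kB subunit from the inflammation list, was at 8.43 to 19.0 CPM against 3.86 to 10.3 CPM (0.79, SE 0.21, adjusted p = 0.254).

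**Figure D4:**
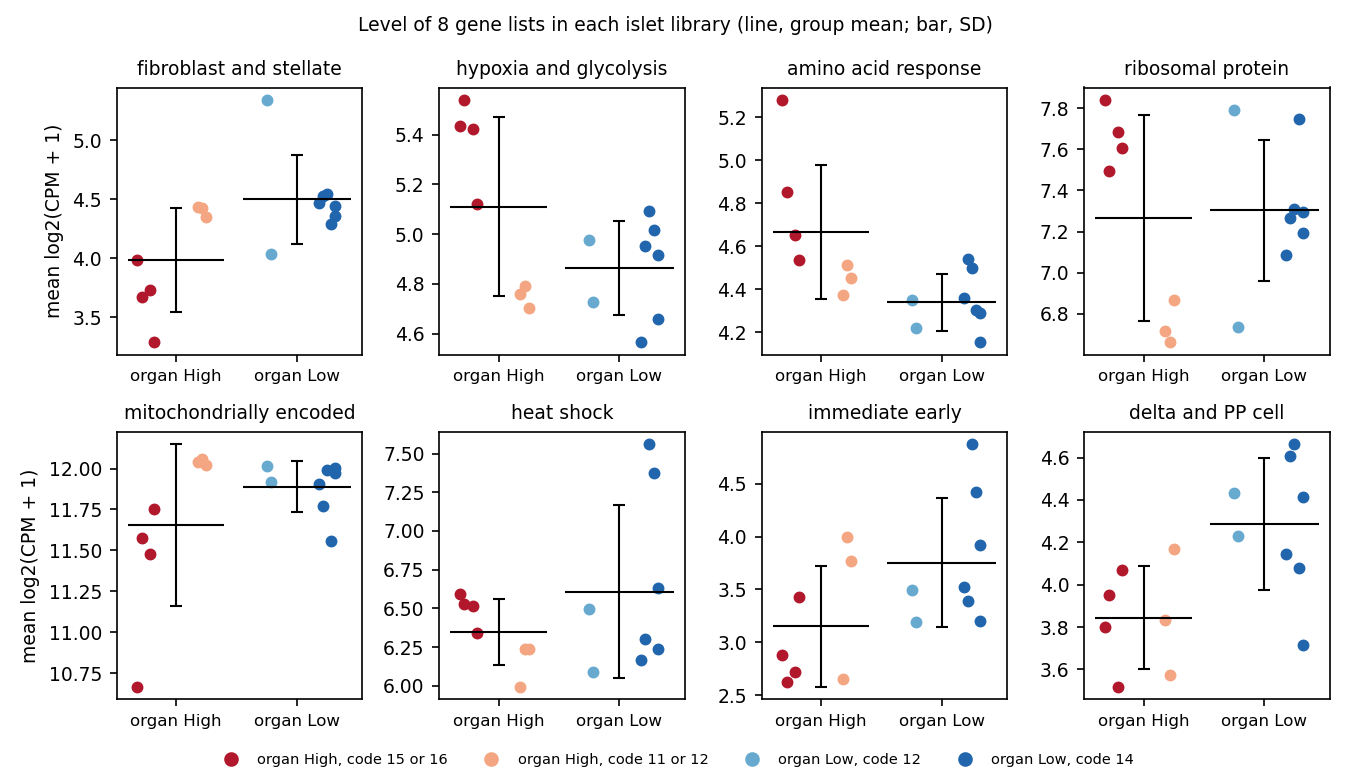
Level of 8 gene lists in each islet library, as the mean log2(CPM + 1) over the genes of the list, by organ label (line, group mean; bar, SD; n = 7 and 8), coloured by animal code. The libraries of codes 15 and 16 lie low for fibroblast and stellate genes (3.29 to 3.99) and high for hypoxia and glycolysis genes (5.12 to 5.54). The 2 highest heat shock levels are in Low libraries of code 14.

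Ribosomal protein genes hid a split inside the High group. Over all 15 libraries 13 of 27 were positive, none had an unadjusted p under 0.05 and the median was −0.04. The list level was 7.49 to 7.84 in the 4 libraries of codes 15 and 16, 6.66 to 6.87 in the other 3 High libraries and 6.74 to 7.79 in Low. Without those 4, the median was −0.60 and 21 of 27 had an unadjusted p under 0.05 in the lower direction, against 4.04% of all genes in that setting. RPL10 was at 113 to 130 CPM in the other 3 High libraries and at 275 to 386 CPM in codes 15 and 16, against 116 to 261 CPM in Low, and its estimate was 0.35 with them and −0.60 without. RPS20 had estimates of −0.23 and −0.79. The 13 genes encoded on mitochondrial DNA were at 10.7 to 11.8 in the same 4 libraries, against 12.0 to 12.1 in the other High ones and 11.6 to 12.0 in Low, where 14HS27 lay within the range of the 4. COX3, a cytochrome oxidase subunit, was at 2645 to 4073 CPM in those 4 and at 5235 to 7043 CPM in the other 11.

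Exocrine genes were at low levels, with a few libraries apart. The 22 acinar genes in the table summed to 15.0 to 574 CPM in High, with a median of 27.9, and to 13.1 to 113 CPM in Low, with a median of 18.9. Of these, 1 was at 0 in all 15 libraries. CPA1, carboxypeptidase A1, was at 330 CPM in 15LS29, 49.7 in 16IS5 and 34.7 in 16CS60, and at 1.67 to 24.5 CPM in the other 12. Its log2 fold change was 3.44 (SE 1.18, adjusted p = 0.380) and −0.91 without codes 15 and 16, and the median of the 4 acinar genes tested was 1.54 and −0.54. The part of acinar RNA in other results was tested only by a fit with the acinar level as a term, under which no gene passed either. No endothelial or duct gene had an unadjusted p under 0.05, among 10 and 13 tested. Of 7 myeloid genes 6 had negative estimates, with a median of −0.28, and CD68, a macrophage gene, was the 1 that was positive and the 1 with an unadjusted p under 0.05 (0.37). ERBB3, a Schwann cell receptor, was the 1 of 6 Schwann and neural genes (−0.43). Other genes with an unadjusted p under 0.05 included HMOX1, a haem-degrading stress enzyme (1.12), and CCND2, a cyclin of beta cell growth (0.34). Such genes numbered 3 higher and 2 lower of 16 antioxidant and metal genes tested, and 1 and 1 of 11 proliferation genes. They were 1 and 2 of 20 cholesterol genes, 2 and 1 of 18 lipid genes and 2 and 1 of 12 inflammation genes. The shares over all genes were 5.25% and 4.67%. Of the 11 proliferation genes, 9 had negative estimates, with a median of −0.20.

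**Figure D5:**
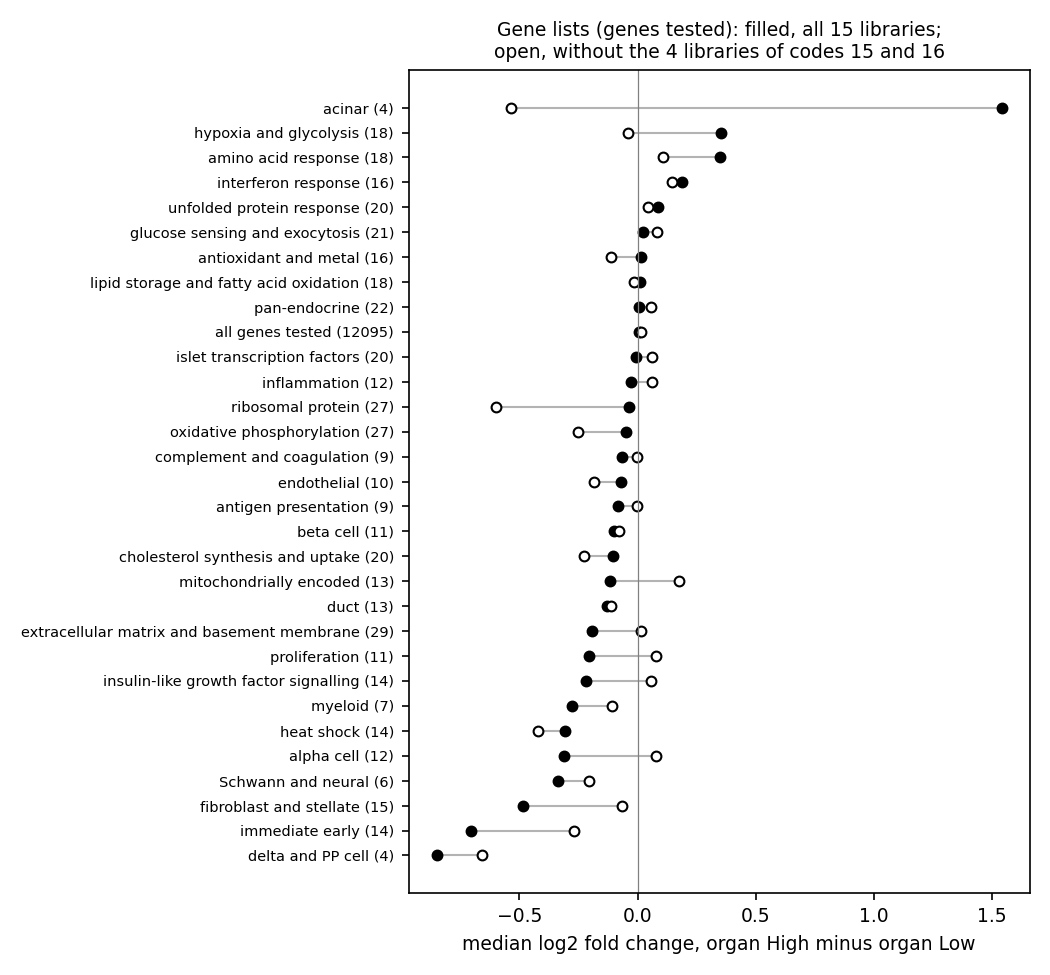
Median log2 fold change (High minus Low organ label) over the tested genes of each list, with the number tested in brackets; filled points use all 15 islet libraries and open points leave out the 4 of codes 15 and 16. The medians of 11 of 30 lists change sign between the settings, among them the acinar, hypoxia and glycolysis, alpha cell, mitochondrially encoded and matrix lists, and that of fibroblast and stellate genes moves from −0.49 to −0.07.

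Because the islets' own label differed from the organ's in 4 animals, both could be entered in 1 model. Among Low organs the own label was High in the 2 animals of code 12 and Low in the 6 of code 14. There the own label and the code cannot be told apart, and this limits every value given with the own label held. With the own label held, the organ label gave 1 call of 12095 (0.00827%) and 1398 genes with an unadjusted p under 0.05 (11.6%), and the own label given the organ label gave 0 calls and 583 such genes. The own label alone, in the same libraries, gave 0 calls and 336 such genes. The 1 gene, ENSSSCG00000024388, has no symbol in the table used and was chosen after its values were seen. Its mean was 55.9 ± 27.6 CPM in High (SD, n = 7) against 29.7 ± 4.37 CPM in Low (SD, n = 8), with a log2 estimate of 1.12 (SE 0.17, adjusted p = 0.0364, edgeR) with the own label held and 0.88 (adjusted p = 0.252) without it. For the fibroblast and stellate list, 9 of 15 had an unadjusted p under 0.05 in the lower direction with the own label held, against 5.71% of all genes. SST had an estimate of −1.38 and PPY −1.29 in that model (adjusted p = 0.186 and 0.431, edgeR). The numbers of calls differ by 1 between the labels, and which label goes with more genes was not tested.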

How the data were processed

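RNA of cultured islets and of pancreas pieces had been sequenced, and the authors deposited whole-number counts per Ensembl pig gene (25880 identifiers, 14857 with a symbol through a table of identifiers). Per the submitters' processing notes, the build was susScr3 and the tools included HISAT2 2.0.2, Subread, FastQC and edgeR, with no roles given. With counting options, strand setting and annotation not given in the sources used here, reads of overlapping, antisense or near-identical genes cannot be told apart. A column without a matching sample (1) was not used.

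Libraries were grouped by the label of the pancreas sample with the same animal code. No 2 libraries of a group were the same (49 pairs, lowest chi-square per degree of freedom 5.58). Genes were filtered with filterByExpr, scaled by TMM and tested with the robust quasi-likelihood test of edgeR 4.0.16 in R 4.3.3, two-sided, with Benjamini-Hochberg adjustment over all tested genes and a threshold of 0.05. DESeq2 1.42.0, limma-voom (limma 3.58.1), other scalings, filters, covariates and omitted animals were alternatives. Single values were compared with exact permutation tests over 6435 splits (scipy 1.17.1). Fold changes are log2, organ High minus organ Low, and CPM use the library total, so both can differ in size and sign. The fits were tested on simulated data.

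The groups, 32 gene lists and rules were chosen with earlier results of these data known. Named genes are the 10 with the smallest p in each direction (symbol, mean of at least 5 CPM), the 4 hormones, and up to 4 per list with the smallest p, together with genes among the 10 most abundant. A list is described by counts and its median. Lists whose median the text leaves out lay between −0.34 and 0.02.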

Additional observations from a re-analysis of the deposited data

Results flagged for a closer look

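Some values stood apart from the rest of their group, by the gap to the nearest library relative to the range of the group. There were 15 among 170 group checks. For normally distributed values, chance alone gives about 5% of groups such a value. CPM need not be so distributed, and the checks share libraries and genes, so the count was not compared with that rate. Library 16CS60 was the highest of the High group for CHAC1 (74.9 CPM), for the cystine transporter SLC7A11 (100.5 CPM) and for RAB3B (468 CPM), and its mitochondrially encoded genes had the lowest level (10.7 as mean log2(CPM + 1)). Library 16IS5 was the highest for HMOX1 (17.8 CPM) and STOM (19.5 CPM) and the lowest for ITGA11 (2.30 CPM). Library 15LS29 held the highest CPA1 value (330 CPM) and the lowest pan-endocrine level (8.56). Library 12FS133 held the highest GCG value of the High group (17748 CPM).

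In the Low group, 12FS135 had 17161 genes with at least 3 counts, against 15317 in the next library, and the highest fibroblast and stellate level (5.35). Library 14HS27 had the highest CPA1 value of that group (24.5 CPM) and the highest acinar level (1.94), and 14ES73 the highest IFIT1 value (11.2 CPM).

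The difference between organ labels was unlike in islets and in the organ pieces for 10 of 14 genes tested for it in the model of both tissues, in which 44.3% of all genes passed. Apart from the hormone genes, the 14 were chosen for a small p between organ labels in these same islets. The islet difference is part of the value tested, so the count is a description and no independent check. DRC1, CPB2 and PANX1 did not reach the level needed for testing in the organ pieces alone. As islets minus organ it was −3.13 for GCG, −1.73 for INS, −1.22 for SST, 2.95 for PLEKHB1, 3.49 for DRC1, 1.70 for MPPE1, 1.92 for CPB2, −0.90 for ATP6V1D, −2.19 for PPP3CA and 1.35 for PANX1. Of these calls, SST and ATP6V1D were lost with relative log expression scaling, PANX1 with a filter of 1 CPM in 7 libraries, SST, CPB2 and PANX1 with no animal block, and MPPE1, CPB2 and ATP6V1D without codes 15 and 16 (adjusted p = 0.0551 to 0.179, edgeR). With the animals whose organ library held under 1000000 counts left out, the lowest adjusted p among the 14 was 0.979 (edgeR). Depth of the organ libraries and the organ label cannot be told apart.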

How the results depend on the processing

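The count of genes between organ labels was 0 and became 43 with DESeq2, 1 without a low-count filter, 1 with the leading code digits as a factor, 2 with only code 12 and 6 without code 14. Leaving out 1 library gave 0 to 25 (25 without 12FS133, 12 without 12FS131). With the own label as covariate 1 gene passed, 7 without the filter, 117 with DESeq2, 5 with limma-voom and 0 to 56 without 1 library (56 without 12FS161, 55 without 12FS133). For the own label, given the organ label, these were 0, then 8 without the filter, 5 with limma-voom and 0 to 17 without 1 library, and for the own label alone 0, then 8, 4 and 0 to 17. In the model of both tissues, the organ label difference was unlike in islets and organ pieces for 6640 genes. That count was 6564 with relative log expression scaling and 5428 without codes 15 and 16. Without animals whose organ library held under 1000000 counts, 12FS161 is the lone Low animal, so that fit gives no comparable count.

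No text gene changed sign under the other scalings, filters, tools or endocrine and acinar covariates. Signs turned in other settings, none past the threshold. With the leading code digits as a factor the log2 fold changes were ESAM 0.31, INS −0.094, CD68 −0.25, RPL10 −0.62, GCG 0.21, ENO2 −0.19, DUSP1 0.43, CPA1 −0.37, COX1 0.075, PDK1 −0.065, ATF3 0.14, ERBB3 0.091, CHGB 0.33, DNAJB1 0.22 and LEPR 0.0002. With only code 12 they were ATF3 0.14, ENO2 −0.19, DUSP1 0.43, ERBB3 0.093, RPL10 −0.62, PDK1 −0.063, DNAJB1 0.22, ESAM 0.31, CD68 −0.25, CPA1 −0.38, LEPR 0.0028, INS −0.091, CHGB 0.34, GCG 0.21 and COX1 0.077. Without codes 15 and 16 they were CHGA 0.044, COX1 0.12, INS −0.12, WARS1 −0.028, RPL10 −0.60, ENO2 −0.067, COX3 0.018, CPA1 −0.91 and GP2 −0.38, the INS difference was −3330 CPM and the share of the 10 most abundant genes differed by 0.726 percentage points. With the log2 library total they were GP2 −0.094, INS −0.077, COX1 0.049 and RPL10 −0.22. With 12AS51 added to High they were COX1 1.56, COX3 1.70, NEUROD1 0.35 and CHGA 0.43. Without code 14 they were ESAM 0.020 and DNAJB1 0.46, and that share differed by 0.0457. Without 1 library the share differed by −1.56 to 0.980. The cause was not tested.

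Islets from High and Low organs could not be compared in pairs, because each animal gave 1 islet library and the groups hold different animals. The code digits follow the organ label except in code 12, which leaves 2 against 2 animals. Leaving out the 4 libraries coded 15 and 16 changed the sign of the median in 11 of 30 lists. Low counts limit genes near the floor of 0.565 to 0.906 CPM, such as PLEKHB1 in Low.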
